A study of Sus scrofa with 92 samples.

Results

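MYOD1 and MYF6 are the pig genes for a pair of myogenic regulatory factors, and their transcripts were followed across tissues and breeds in bulk RNA sequencing of pigs. They are 2 of the 25322 gene IDs measured and were chosen by gene symbol: MYOD1 is ENSSSCG00000013375 and MYF6 is ENSSSCG00000026533, each with 1 ID. RNA of pigs 60 days old was sequenced in 92 libraries from 10 breeds, with no treatment or genotype named. Psoas major and longissimus dorsi, the skeletal muscles of the study, had 10 libraries each. Of the other tissues, spleen gave 10 libraries, ovary, subcutaneous adipose, heart, kidney and liver 9 each and lung 8, and the remaining 9 libraries were tissue mixtures of unstated makeup. The Chinese pigs were Tibetan wild boar, Rongchang, Meishan, Jinhua and Bamei, and the breeds of Western origin were Piétrain, Large White, Landrace, Hampshire and Berkshire. There was at most 1 library for each breed and tissue, so breeds serve as replicates. Tibetan wild boar had libraries of spleen and both muscles only, and Rongchang had none of lung. The labels do not say whether 1 animal gave all tissues of a breed or animals were pooled, and p-values measure only the spread between these libraries.

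Myogenic regulatory factors are transcription factors of the basic helix-loop-helix class that pair with E proteins, bind E box sequences and switch on muscle genes. MYOD1 commits cells to the muscle lineage and rises when satellite cells, the stem cells of muscle, are activated, while MYF6, also called MRF4, is known in rodents as the most abundant factor of the family in mature fibres. MYF5 acts early in the lineage and marks satellite cells; MYOG, the remaining member, was not analysed here. In the RefSeq annotation of the Sscrofa11.1 assembly, MYF6 lies next to MYF5, and the RefSeq locus LOC110260827 overlaps both. Whether reads were counted by strand is not given in the sources used here, so reads of MYF6, MYF5 and that locus could not be told apart where they overlap. MYOD1 lies between KCNC1 and OTOG in that annotation, with 0 overlapping genes.

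Values are FPKM, fragments scaled to transcript length and library total, as deposited by the authors, then scaled between libraries by median ratios. FPKM is given per length, so levels of different genes are set side by side here. This holds only as far as the gene models are complete and reads went to the right gene, which was not tested. Total FPKM ran from 519075 to 2196138 per library, and the relative depth estimated from the smallest values ran from 0.712 to 1.38 (0.818 to 1.38 among the 20 muscle libraries); the absolute depth is unknown. A 0 in these tables is not always a low level: for 260 genes the libraries of a tissue held both a 0 and a value of 100 FPKM or higher, and ALB, the albumin gene, was listed at 0 in 9 of 9 livers. The tissue labels matched the marker genes of skeletal fibres, cardiomyocytes and hepatocytes. The summed level of 12 skeletal fibre genes was 24624 to 113226 scaled FPKM in skeletal muscle and at most 4359 in any other single tissue library. That of 8 cardiomyocyte genes was 8506 to 13395 in heart, and that of 11 hepatocyte genes was 65626 to 133719 in liver. In bulk tissue, fewer cells of a type and less RNA per cell cannot be told apart.

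Both factors were transcripts of skeletal muscle. MYOD1 stood at 4.77, 43.9 and 68.9 scaled FPKM (lowest, median and highest of 20 skeletal muscle libraries, on the scale of all tissues), with a mean of 38.3 ± 19.2 in psoas major and a mean of 40.2 ± 20.3 in longissimus dorsi (SD, n = 10 each). MYF6 stood at 75.2, 183 and 511 in the same libraries, with means of 172 ± 102 in psoas major and 277 ± 136 in longissimus dorsi. MYF5 was the lowest of the 3, at 3.09 ± 0.636 in psoas major and 4.16 ± 0.958 in longissimus dorsi. The ranges of the 2 muscles overlapped for each of these genes, and for MYOD1 and MYF6 no library of another single tissue or of a mixture reached the lowest muscle library.

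Outside muscle the next levels were in ovary and subcutaneous adipose. MYOD1 was above 0 in 9 of 9 ovaries (0.0861, 0.292 and 0.587 scaled FPKM as lowest, median and highest) and in 8 of 9 adipose libraries (0, 0.0604 and 0.883, the highest in Meishan). MYF6 was above 0 in all 9 ovaries (0.279, 0.767 and 2.11) and all 9 adipose libraries (0.131, 0.741 and 8.86, the highest again in Meishan). Ovary and adipose overlapped for both genes and do not differ beyond their spread. Liver came after them, with MYOD1 above 0 in 5 of 9 libraries and at most 0.217 (Berkshire), and MYF6 above 0 in 6 of 9 and at most 0.333. The MYOD1 range of liver overlapped those of ovary and adipose, and the MYF6 range of liver overlapped those of ovary, adipose and spleen. MYOD1 was listed at 0 in all 10 spleens, 9 kidneys, 9 hearts and 8 lungs. MYF6 was above 0 in 8 of 10 spleens, at most 0.102, and in 5 of 9 kidneys, at most 0.0632, and was listed at 0 in all 9 hearts and 8 lungs. Of the 63 libraries of tissues other than skeletal muscle, 22 were above 0 for MYOD1, 37 for MYF6 and 10 for MYF5.

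**Figure D1:**
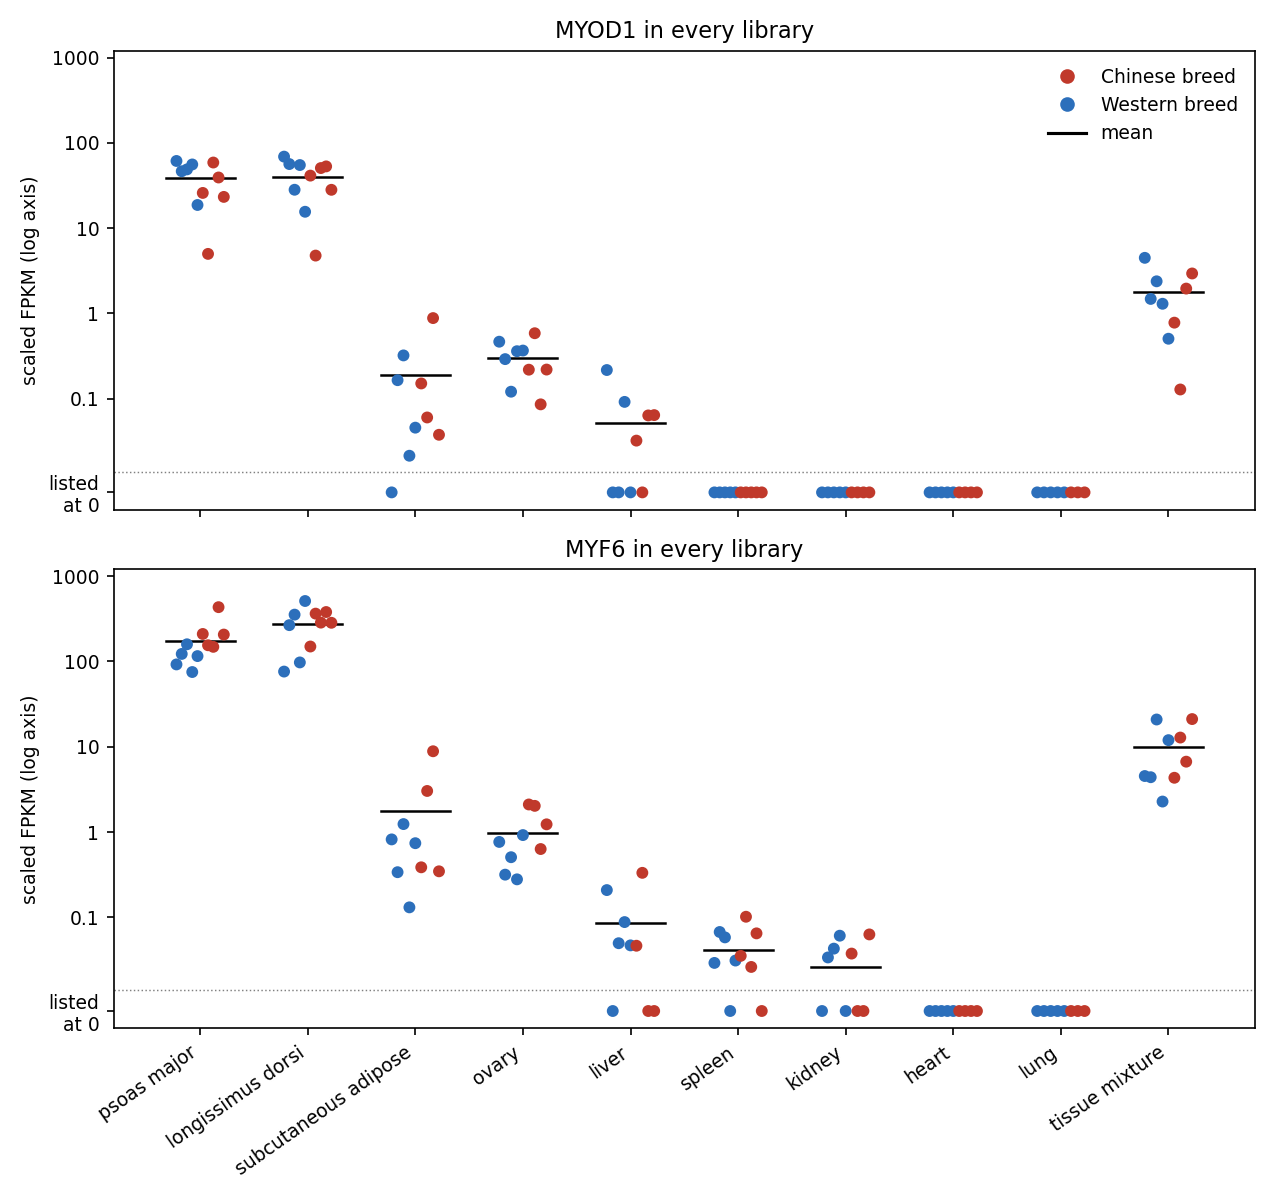
MYOD1 (top) and MYF6 (bottom) in each of 92 libraries, by tissue, in scaled FPKM on a log axis; each point is 1 library, red for Chinese and blue for Western breeds, black lines are means, and points under the dotted line are listed at 0. The 20 skeletal muscle libraries lie between 4.77 and 68.9 for MYOD1 and between 75.2 and 511 for MYF6, and every heart and lung is listed at 0 for both.

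In the heart, a striated muscle, both factors were listed at 0, while transcripts of the contractile machinery were measured. The 5 slow fibre genes, among them TNNC1 and MYL3, which the heart also uses, summed to 16812 to 22226 scaled FPKM in the 9 hearts, and the 12 skeletal fibre genes summed to 0.0703% to 0.459% of the skeletal muscle level of the same breed. MYOD1, MYF6 and MYF5 were each listed at 0 in 9 of 9 hearts.

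Across tissues, a rule for genes of skeletal muscle (higher than in each of the 7 other tissues, limma adjusted p below 0.05 and every log2 difference above 1) called 419 of 17207 genes, or 2.44% (211 on unscaled FPKM). MYOD1, MYF6 and MYF5 were among them; the pair was proposed with its tissue pattern known, so this is a description. Of the genes that work with the factors, the dimer partners TCF3, TCF4 and TCF12 gave 0 calls of 3 (0 higher at an unadjusted limma p below 0.05), and 0 of 10 chromatin cofactors were called (2 higher at that p, by less than the fold asked for). MEF2C, which binds DNA beside the myogenic factors, was called among 4 MEF2 genes. Among the upstream regulators, SIX4, a homeobox activator of the family, PITX3 and LBX1 were called. Of 8 inhibitors only MSTN, the muscle growth inhibitor myostatin, was called. Of 11 genes known as E box targets, CHRNA1, a subunit of the acetylcholine receptor, CDH15, M-cadherin of satellite cells, MYMK, which fuses myoblasts, and MUSK, the kinase of the neuromuscular junction, were called. All 12 skeletal fibre genes were called.

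The genes with the tissue pattern most like each factor were genes of the fibre. Over the 83 single tissue libraries, and among 10585 genes with a symbol, log2 MYOD1 was most like TRIM72, a membrane repair protein, KLHL40, a thin filament stabiliser, and SYPL2, a protein of the triad (Pearson r = 0.97 each, given as a description), followed by CACNG1, a subunit of the muscle calcium channel (0.97), AMPD1, the muscle AMP deaminase, and NEB, the thin filament protein nebulin (0.96 each). MYF6 was most like MYLK2, the skeletal myosin light chain kinase, CACNA1S, the voltage sensor of the muscle fibre, and SYPL2 (0.99 each), then NEB and TRIM72 (0.99 each) and MYH13, the extraocular myosin heavy chain (0.98). SYPL2, NEB and TRIM72 stood in both lists. MYF6 was at rank 23 in the list of MYOD1 (r = 0.95) and MYOD1 at rank 43 in the list of MYF6. These libraries share 10 breeds, and the 20 muscle libraries set the height of each r.

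MYOD1 differed between breeds more than most muscle genes. On the scale of the 20 muscle libraries alone, which lies lower than the scale of all tissues, MYOD1 was at 3.19, 27.4 and 39.4 scaled FPKM (lowest, median and highest) in psoas major and at 2.99, 29.2 and 44.0 in longissimus dorsi. The lowest library was Jinhua and the highest Berkshire in both muscles, 12.4-fold apart in psoas major and 14.7-fold apart in longissimus dorsi. The next lowest was Piétrain in both, at 11.9 and 9.65. The SD of log2 levels within a muscle was 1.04 for MYOD1, above 97.7% of 12105 genes, whose median was 0.29.

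MYF6 spread over breeds too, but in another order. It was at 47.8, 96.9 and 279 scaled FPKM in psoas major, lowest in Large White and highest in Rongchang (5.83-fold), and at 48.6, 181 and 317 in longissimus dorsi, lowest in Berkshire and highest in Piétrain (6.52-fold). Its SD of log2 levels within a muscle was 0.80, above 95.6% of genes. MYF5 spread less, by 1.98-fold in psoas major and 1.90-fold in longissimus dorsi, with an SD of 0.22. In Jinhua, MYF6 was at 98.8 in psoas major and 228 in longissimus dorsi, and MYF5 was at 2.06 and 3.49, the highest of the 10 longissimus libraries. The low MYOD1 of Jinhua was thus not shared by the other family members measured.

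**Figure D2:**
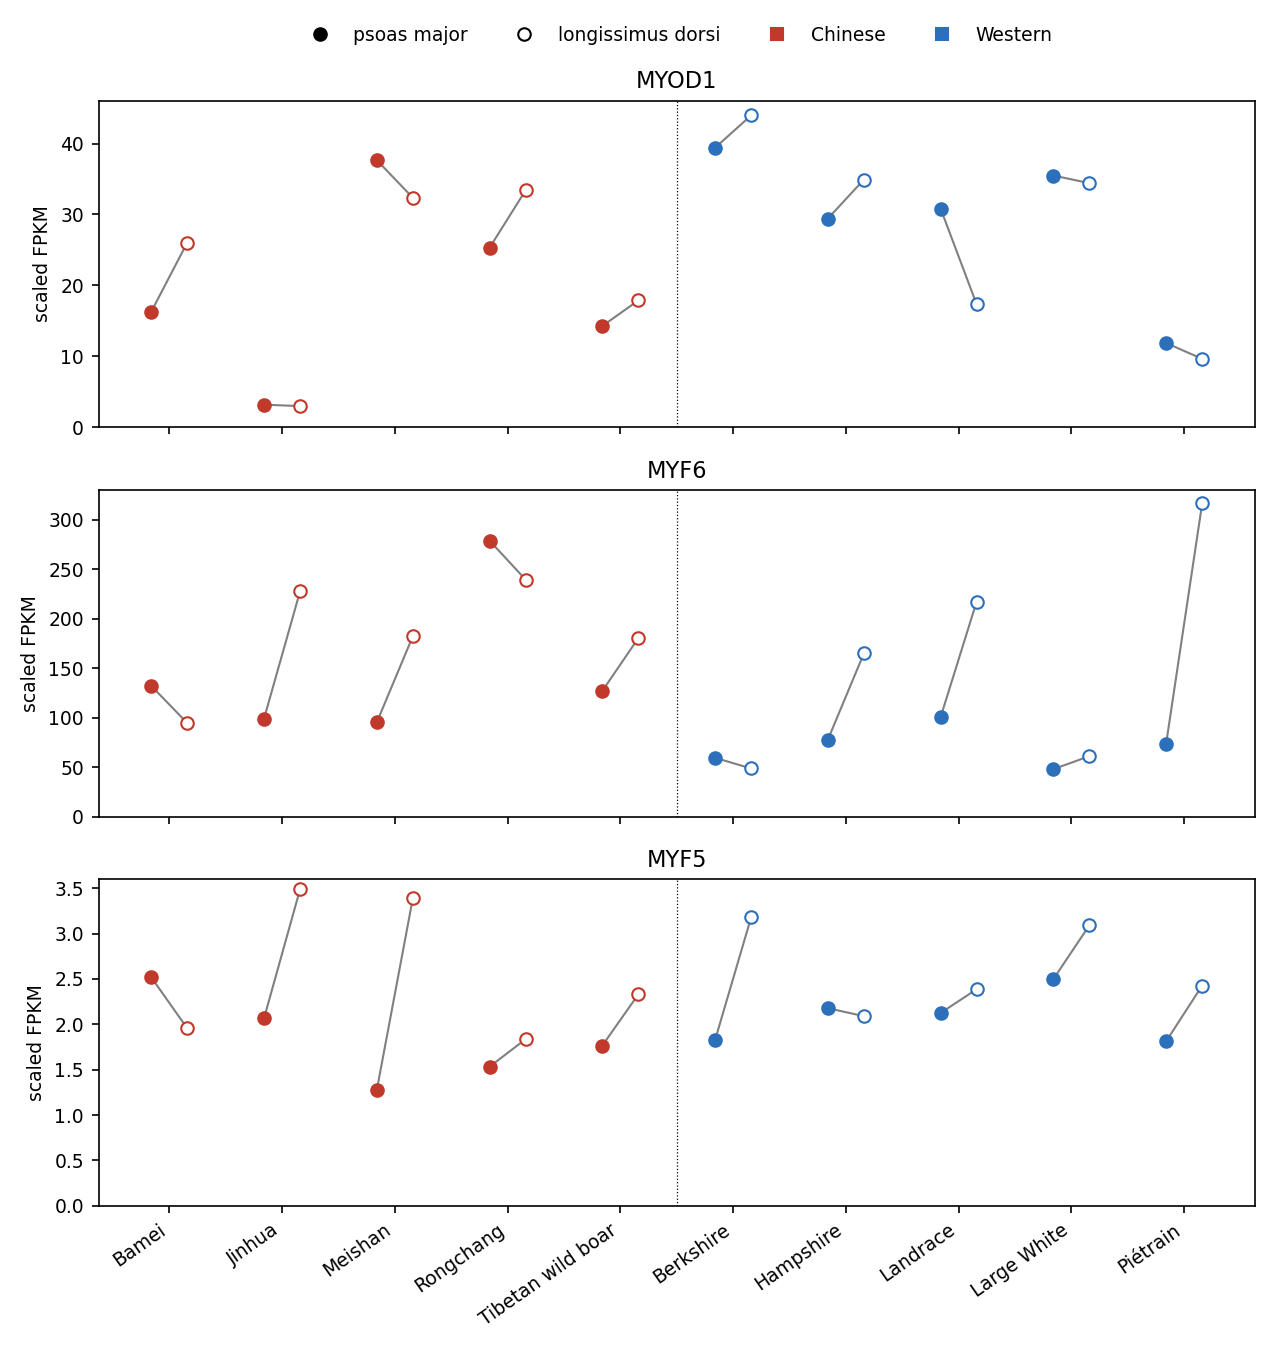
MYOD1 (top), MYF6 (middle) and MYF5 (bottom) in scaled FPKM (y axis, from 0) in psoas major (filled) and longissimus dorsi (open) of each breed, with a line joining the libraries of a breed; Chinese breeds are red and stand left of the dotted line, Western breeds are blue. MYOD1 is lowest in Jinhua in both muscles (3.19 and 2.99), while MYF6 ranges from 47.8 to 317.

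The breed order of MYOD1 was shared by the 2 muscles. Over 10 breeds, log2 MYOD1 in psoas major and in longissimus dorsi had Pearson r = 0.92 (permutation p = 0.00112, 0.00448 adjusted over 4 relations) and Spearman rho = 0.76 (permutation p = 0.0146, adjusted 0.0584). Without Jinhua and Piétrain, the breeds farthest from the median, r was 0.61 (exact permutation p = 0.0936, n = 8), and without Jinhua alone it was 0.77, so the relation rests in large part on those breeds. The breed means of the 2 muscles held 96.2% of the variance of MYOD1 that the muscle means left, against a median of 81.0% over genes. Averaging 2 libraries per breed leaves a sizeable share even where the muscles are unrelated. This breed share is therefore not variance explained by breed and is read only against the median over genes. A high r between the muscles of a breed was common: its median over 12105 genes was 0.65, and MYOD1 stood at percentile 95.5.

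MYF6 showed less of a shared order. Its r between muscles was 0.50 (permutation p = 0.142, adjusted 0.189; rho = 0.38, permutation p = 0.276, adjusted 0.276), at percentile 31.6 of genes, and 0.24 without Large White and Rongchang (exact permutation p = 0.580, n = 8). Its breed share was 74.4%, below the median of 81.0% over genes. For MYF5 the r was -0.16, at percentile 2.36, and the breed share 42.0%, at percentile 2.12, so no breed order shared by the muscles was seen. MYF5 was low, with means of 1.96 in psoas major and 2.62 in longissimus dorsi, and its SD of log2 levels was at percentile 26.8. Its counting error is unknown, so a lack of shared order cannot be read from these values. Origins hold 5 breeds each, too few for r within an origin.

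**Figure D3:**
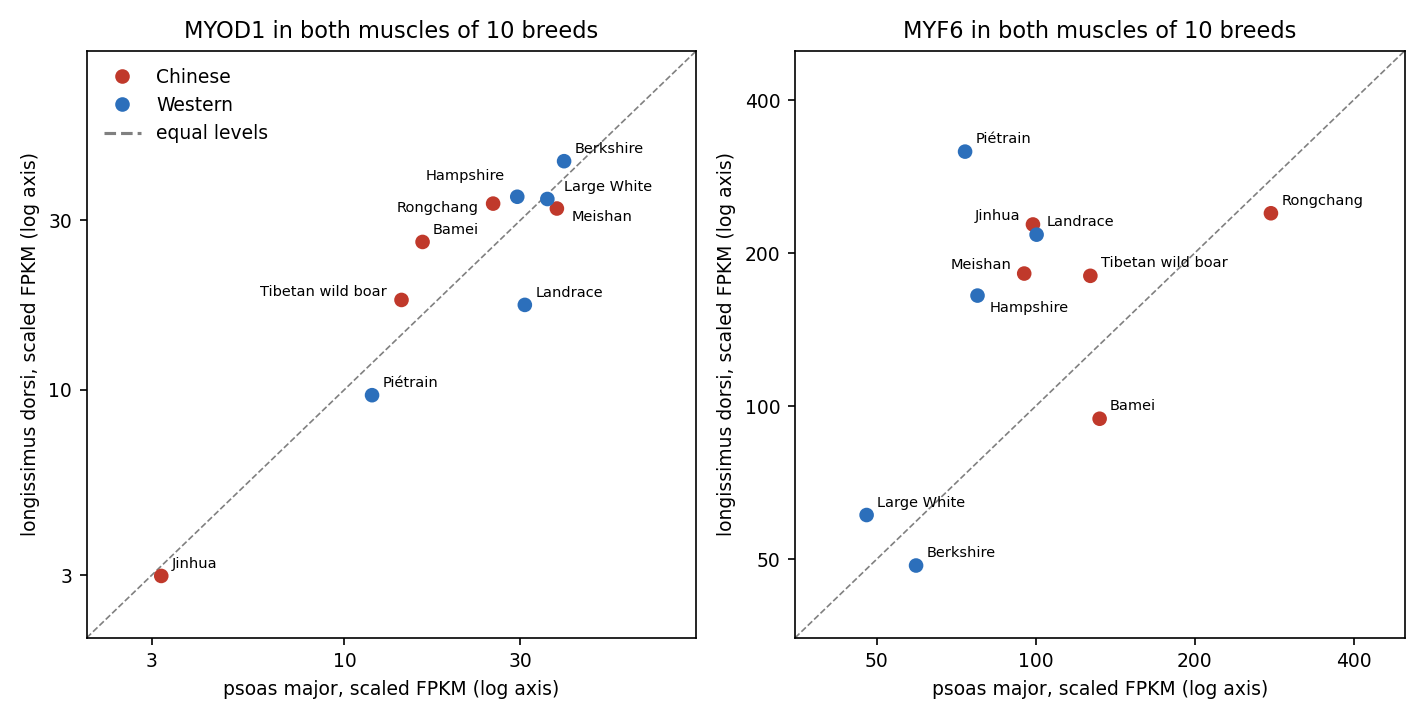
Psoas major (x axis) against longissimus dorsi (y axis) in scaled FPKM on log axes for MYOD1 (left) and MYF6 (right); each point is a breed, red for Chinese and blue for Western, and the dashed line marks equal levels. MYOD1 follows the line (r = 0.92 on log2 values), with Jinhua and Piétrain at the low end; MYF6 lies above the line in 7 of 10 breeds.

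MYOD1 and MYF6 themselves did not go up and down together over breeds. Their r was -0.19 in psoas major (permutation p = 0.562, adjusted 0.562; rho = -0.42, permutation p = 0.234, adjusted 0.276) and -0.57 in longissimus dorsi (permutation p = 0.0763, adjusted 0.153; rho = -0.70, permutation p = 0.0312, adjusted 0.0624). Without Jinhua and Piétrain it was -0.55 (exact permutation p = 0.163, n = 8) and -0.54 (exact permutation p = 0.162, n = 8). None of these relations passed after adjustment. MYF6 was above MYOD1 in all 20 muscle libraries. The ratio of MYF6 to MYOD1 was 1.35, 4.72 and 31.0 (lowest, median and highest) in psoas major and 1.10, 6.40 and 76.2 in longissimus dorsi, with the highest in Jinhua in both. The log2 ratio was 0.60 lower in psoas major, with an SD of 1.15 over breeds (mean difference -0.60; exact permutation p = 0.137, two-sided, n = 10; the smallest p it can give is 0.00195), and it was higher in psoas major in 3 of 10 breeds.

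The comparison of psoas major with longissimus dorsi asks whether the factors differ between muscles of other position and fibre makeup. MYOD1 did not pass the test: psoas major had 24.4 ± 12.3 and longissimus dorsi 25.3 ± 12.9 scaled FPKM (SD, n = 10 each), a log2 difference of -0.03 ± 0.12 (SE; 95% interval -0.29 to 0.22; limma adjusted p = 0.863), and it was higher in psoas major in 5 of 10 breeds. MYF6 was at 109 ± 65.5 in psoas major and 173 ± 84.6 in longissimus dorsi, a difference of -0.63 ± 0.23 (95% interval -1.13 to -0.12; limma p = 0.0190, adjusted p = 0.0628), which missed the threshold of 0.05. It was lower in psoas major in 7 of 10 breeds, by most in Piétrain, with 73.5 in psoas major and 317 in longissimus dorsi, and higher in psoas major in Berkshire, Bamei and Rongchang. Those 3 breeds go the other way, so leaving out any of them enlarges the difference by construction. MYF6 then passed the threshold, at -0.73 (limma adjusted p = 0.0436) without Berkshire, -0.75 (0.0308) without Bamei and -0.72 (0.0457) without Rongchang. Leaving out any other breed moved it further from the threshold, with a limma adjusted p from 0.0858 (Large White) to 0.129 (Jinhua). MYF5 fell to 1.96 ± 0.397 in psoas major, against 2.62 ± 0.614 in longissimus dorsi (-0.28 ± 0.10, limma adjusted p = 0.0482), lower in 8 of 10 breeds; its call was lost with FPKM as deposited (adjusted p = 0.0591) and without any breed other than Hampshire and Bamei (0.0588 to 0.102). Thus 0 of the 2 factors were called (1 of 2 at an unadjusted p below 0.05), where 13.1% of 12112 genes were called higher and 14.8% lower, 27.9% in all (1587 and 1797 genes; 330 and 324 with no breed block). All differences are on the scale of log2(scaled FPKM + 1), which understates changes of low genes.

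Around the factors, 3 of 8 upstream regulators were called higher in psoas major and 3 of 11 E box targets lower, where 13.1% and 14.8% of all genes were. LBX1, a homeobox gene of migrating limb muscle precursors, rose to 3.61 ± 1.81 scaled FPKM in psoas major, against 1.81 ± 1.38 in longissimus dorsi (log2 0.76 ± 0.09 SE, limma adjusted p = 0.000279), higher in 10 of 10 breeds. The homeobox gene SIX4 (0.46 ± 0.11) and EYA3, a cofactor of such homeobox genes (0.28 ± 0.05), rose as well, making 3 of 8 upstream regulators higher and 0 lower, with a list median of 0.20 beside -0.01 over all genes. Of 6 inhibitors, MSC, also called MyoR, a repressor that competes for E boxes, fell to 1.44 ± 0.608 in psoas major, against 2.35 ± 0.730 in longissimus dorsi (-0.46 ± 0.09, limma adjusted p = 0.00394), lower in 10 of 10 breeds; the list median was 0.01. Of 11 E box targets, PRKAG3, a subunit of AMP kinase in glycolytic muscle (-0.77 ± 0.13), CHRNA1 (-0.36 ± 0.09) and MYMK (-0.59 ± 0.15) fell and RB1, the retinoblastoma gene, rose (0.19 ± 0.06); the list median was -0.35.

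The partners of the factors gave few calls, where 13.1% of all genes were called higher and 14.8% lower. With 3 genes in a list, 0 calls cannot be told from those shares. Of 3 E proteins and of 3 MEF2 genes, 0 were called in limma after adjustment, and 0 had an unadjusted p below 0.05; TCF3 was at -0.12 ± 0.07 and TCF12 at -0.09 ± 0.06, MEF2C at -0.18 ± 0.20 and MEF2A at 0.06 ± 0.08, with list medians of -0.10 and 0.01. Of 10 chromatin cofactors 1 was called lower, near the share of all genes. It was CREBBP, a histone acetyltransferase (-0.32 ± 0.09), and the list median was -0.10. HDAC9 (-2.01 ± 1.63) was listed at 0 in 7 psoas and 5 longissimus libraries.

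Cell type markers were set beside the same comparison, in which 13.1% of 12112 genes were called higher in psoas major and 14.8% lower. Of 7 satellite cell genes 4 fell in psoas major (NCAM1 -0.61, VCAM1 -0.48, FGFR4 -0.25 and MYF5) and 0 rose. The satellite cell list is not particular to muscle, since its 8 matched genes summed to 333 to 698 scaled FPKM in spleen. In psoas major that sum was 33.7 to 72.8 and in longissimus dorsi 37.8 to 99.2. All summed levels here are on the scale of all tissues, not on that of the muscle libraries alone. Of 7 fast fibre genes 6 fell, among them TPM1 (-1.25) and MYBPC2 (-1.11), and of 5 slow fibre genes MYH7B (0.76) and MYL3 (0.63) rose. Of 12 skeletal fibre genes 9 fell and MYBPC1 rose (0.74). Markers of other cells fell as well: 10 of 11 hepatocyte genes, 7 of 8 fibroblast and matrix genes and 4 of 6 adipocyte genes, while endothelium and blood had 1 of 6 higher and 1 lower, the cardiomyocyte list 1 of 3 higher (MYH6, the alpha myosin heavy chain) and 1 lower (TNNT2), and the nerve list 0 of 2 (0 at an unadjusted p below 0.05). The summed hepatocyte level was 18.4 to 63.7 scaled FPKM in psoas major and 24.8 to 500 in longissimus dorsi, highest in the Piétrain longissimus, the library with the highest MYF6 of its muscle. The matrix sum was 724 to 2092 in psoas major and 1085 to 3376 in longissimus dorsi. Their part in the values of MYF6 and MYF5 was not tested.

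Between breeds of Chinese and Western origin, neither factor passed the test. MYOD1 in psoas major was at 16.3 in Bamei, 3.19 in Jinhua, 37.7 in Meishan, 25.3 in Rongchang and 14.3 in Tibetan wild boar, against 39.4 in Berkshire, 29.4 in Hampshire, 30.8 in Landrace, 35.5 in Large White and 11.9 in Piétrain. In longissimus dorsi, MYOD1 was at 26.1, 2.99, 32.4, 33.4 and 17.9 in the Chinese breeds and at 44.0, 34.9, 17.3, 34.4 and 9.65 in the Western breeds, each in the same order. The groups overlapped in both muscles. Over the mean of both muscles the log2 difference was -0.63 ± 0.56 (SE; 95% interval -1.86 to 0.61; limma adjusted p = 1.00; -0.10 ± 0.37 without Jinhua), with 20.9 ± 12.4 scaled FPKM in Chinese and 28.7 ± 11.9 in Western breeds (SD, n = 5 each).

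MYF6 leaned the other way. In psoas major it was at 132 in Bamei, 98.8 in Jinhua, 95.1 in Meishan, 279 in Rongchang and 127 in Tibetan wild boar, against 59.3 in Berkshire, 77.6 in Hampshire, 100.4 in Landrace, 47.8 in Large White and 73.5 in Piétrain. These groups met only where Landrace exceeded Jinhua and Meishan. In longissimus dorsi MYF6 was at 94.4, 228, 182, 239 and 180 in the Chinese and at 48.6, 165, 217, 61.0 and 317 in the Western breeds in the same order, and the groups overlapped over most of their range. The mean of both muscles was 166 ± 55.6 in Chinese and 117 ± 62.8 in Western breeds, a log2 difference of 0.70 ± 0.34 (95% interval -0.05 to 1.46; limma p = 0.0656, adjusted p = 1.00); psoas major alone gave 0.94 ± 0.30 (limma p = 0.00898, adjusted p = 0.725) and longissimus dorsi alone 0.46 ± 0.49 (limma p = 0.371, adjusted p = 1.00). Of 12112 genes 0.0413% were called higher and 0.0495% lower, 0.0908% in all (5 and 6 genes, or 1 to 8 and 2 to 4 when 1 breed was left out), and 0 of the 2 factors (0 at an unadjusted p below 0.05). MYF6 fell below that unadjusted p on FPKM as deposited (limma p = 0.0265) and under quantile normalization (limma p = 0.0242), and did not pass after adjustment in either.

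The difference between muscles did not pass as differing by origin for either factor: the Chinese minus Western difference in it was -0.36 ± 0.22 for MYOD1 and 0.48 ± 0.46 for MYF6 (limma adjusted p = 0.925 each). In that test 0 of 12112 genes were called in either direction, with 294 higher and 282 lower at an unadjusted p below 0.05 (62 and 1151 on unscaled FPKM, where the median of all genes was -0.12). By origin, 0 genes of each of the 17 lists were called in limma, in the muscle mean (2 higher and 2 lower of 104 at an unadjusted p below 0.05) as in the difference between muscles (6 and 4 of 104). Those in the muscle mean included MYH7B (0.69 ± 0.18, limma adjusted p = 0.438), EYA3 (-0.33 ± 0.09, adjusted p = 0.459) and CDH15 (-0.60 ± 0.21, adjusted p = 0.712).

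Within muscle, the genes whose breed pattern was most like each factor were other genes than those of the tissue pattern. After the mean of each muscle was removed, over 20 libraries and 7832 genes with a symbol, MYOD1 was most like SHISA2, known in mice as a regulator of myoblast fusion (r = 0.79), TMEM150C (0.78), CTSB, a lysosomal protease (0.77), ZNF644, CHSY1, an enzyme of chondroitin sulfate synthesis, and GUSB, the lysosomal beta-glucuronidase (0.76 each). These are descriptions, and both libraries of a breed enter them. SHISA2 was at 1.65 scaled FPKM in the Jinhua psoas, against a psoas median of 23.4, and at 3.62 in the Jinhua longissimus, against a median of 41.5. Jinhua was the lowest library in both muscles for 5 of these 6 genes, and without Jinhua the 6 values of r were 0.41 to 0.65. MYF6 was at r = -0.41 with MYOD1 here, and MYF5 at -0.21.

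MYF6 was most like GTF3C1, a subunit of the RNA polymerase III factor TFIIIC (0.84), DOCK4, an activator of Rap and Rac (0.78), DEDD2 (0.75), SBF2 (0.74), NCOA3, a nuclear receptor coactivator (0.73), and ATG16L2 (0.71). Leaving out each breed in turn, the lowest r of these 6 genes was 0.58 to 0.78. GTF3C1 itself ranged from 4.09 to 5.34 scaled FPKM in psoas major and from 4.43 to 6.22 in longissimus dorsi, a far narrower range than that of MYF6.

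To set the low levels outside muscle beside muscle RNA in general, each library's value was taken as a percent of the skeletal muscle mean of its own breed. In the 9 ovaries MYOD1 was at 0.157%, 0.653% and 12.02% (lowest, median and highest) and MYF6 at 0.163%, 0.304% and 1.17%, while the median of 12 skeletal fibre genes was at 0.0104%, 0.0165% and 0.0538%. Both factors lay above the fibre gene median in 9 of 9 ovaries. A gene that is low in muscle reaches a higher percent from the same trace than the fibre genes, which are far higher there. MYF5, the lowest of the family in muscle, was at 0%, 0.852% and 5.42% in ovary. Of the tissues with lower levels, MYF6 lay above the fibre gene median in 8 of 10 spleens, 5 of 9 kidneys and 4 of 9 livers, and MYOD1 in 5 of 9 livers. In spleen and kidney for MYF6, and in liver for MYOD1, these were all the libraries above 0, so the counts add nothing to detection. The highest MYOD1 shares were those of Jinhua (12.02%) and Piétrain (2.15%), the breeds with the lowest MYOD1 in muscle. In ovary the MYOD1 level of Jinhua was 0.587 scaled FPKM, the highest of the 9, so its share rests on both values.

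Adipose and the mixtures gave another picture. In adipose the fibre gene median was at 0.0570%, 0.215% and 6.51%, MYOD1 at 0%, 0.321% and 1.61% and MYF6 at 0.0854%, 0.237% and 4.09%. MYOD1 lay above the fibre gene median in 4 of 9 and MYF6 in 5 of 9 adipose libraries. The Meishan adipose library was highest in all 3, and its 12 fibre genes summed to 4359 scaled FPKM, against an adipose median of 508. In the mixtures MYOD1 was at 2.32%, 2.95% and 6.89%, MYF6 at 2.26%, 3.82% and 8.14% and the fibre gene median at 2.32%, 4.03% and 9.44%. The factors thus stood near the fibre gene median but more often below it. MYOD1 lay above the fibre gene median in 3 of 9 mixtures and MYF6 in 2 of 9. MYOD1 was lowest in the Jinhua mixture (0.129 scaled FPKM) and next lowest in the Piétrain mixture (0.506), against a median of 1.48 over 9 mixtures. The part of muscle RNA in the values of ovary and adipose was not tested further.

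**Figure D4:**
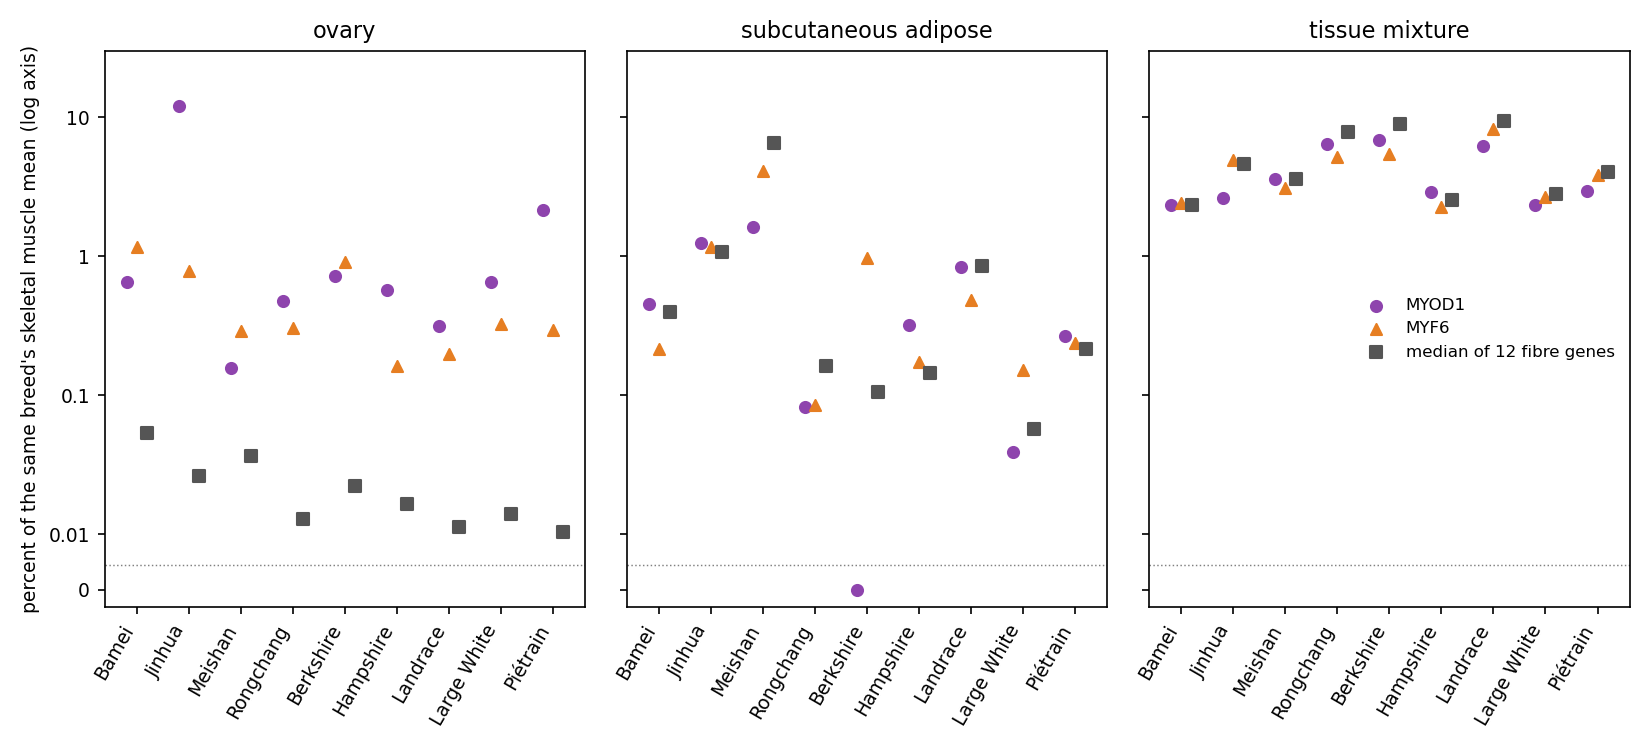
MYOD1 (circles), MYF6 (triangles) and the median of 12 skeletal fibre genes (squares) as a percent of the skeletal muscle mean of the same breed (log axis, with 0 under the dotted line) in ovary, subcutaneous adipose and tissue mixtures, by breed. In ovary both factors lie above the fibre gene median in 9 of 9 breeds. In the mixtures all 3 measures lie between 2.26% and 9.44%.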

How the data were processed

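The authors deposited FPKM per gene ID, made with TopHat and Cufflinks 2.2.1 on Sscrofa10.2, per the submitters' processing notes; annotation release, options and strand setting are not given in the sources used here. All 92 columns were mapped to labelled samples (0 left over). Symbols were looked up by gene ID; of 185 listed symbols in 17 lists, 118 matched. FPKM were scaled by median ratios, once over the 83 single tissue libraries and once over the 20 muscle libraries. The first scale gave levels between tissues and all summed marker levels, and the second gave the other muscle comparisons. A gene entered a fit if 3 or more of its libraries held at least 1 FPKM, and log2(scaled FPKM + 1) went into limma 3.58.1 (trend and robust options, two-sided, Benjamini-Hochberg over all genes kept, threshold 0.05) under R 4.3.3, helped by the data.table package (version 1.17.8) and statmod 1.5.0. Intervals are 95%. Breed was a block between muscles and between tissues: same-breed muscle libraries deviated together from the muscle means (correlation 0.32 to 0.53 in 10 of 10 breeds), paired by the breed label. Origin was tested on the mean of both muscles per breed, and origin of breeds is general knowledge. Correlations used 100000 permutations, or all of them below 10 breeds, and the ratio all 1024 sign patterns. Relative depth came from ratios of low values (0.004 to 0.4 FPKM) between libraries, of which the commonest was taken; 0 pairs of libraries were identical. Scripts were tested on simulated data. Other steps used Python 3.11.15 with matplotlib 3.10.9, scipy 1.17.1, pandas 2.3.3 and numpy 2.4.6. The members and the gene lists were chosen with earlier results of these data known. Per list and comparison, up to 4 genes that passed with the smallest p, or the 2 with the smallest p where none passed, could be named, and per factor the 6 genes of most like pattern; HDAC9 was named after its values were seen. The alternatives were: unscaled (deposited) FPKM, quantile normalization, a filter at 5 FPKM or none, a pseudocount of 0.1, no trend and robust options, no block, single muscles, and leaving out each breed; leaving out breeds from the likeness within muscle was chosen after seeing the data. Some genes that the naming rule covers are not reported here.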

Additional observations from a re-analysis of the deposited data

Results flagged for a closer look

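In 16 groups of 4 to 10 libraries the highest or lowest library was checked for a gap to its neighbour that is large against the range of the group. A chance rate of about 1 such group in 20 presumes normally distributed values. The scaled FPKM here are skewed and some are 0, so the chance rate is not known and the number of flags is not read as an excess. MYF6 in psoas major stood apart in Rongchang, at 279 scaled FPKM on the muscle scale, with the next library at 132. MYOD1 in subcutaneous adipose stood apart in Meishan, at 0.883 with the next at 0.323, and MYF6 in adipose in the same library, at 8.86 with the next at 3.03; that library also had the highest summed skeletal fibre genes of the 9. MYOD1 in liver stood apart in Berkshire, at 0.217 with the next at 0.0920. The causes were not tested.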

How the results depend on the processing

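Absolute depth is unknown, so the counting error of the low values outside muscle cannot be given. Each breed gives at most 1 library per tissue, so a breed's own level has no replicate. No alternative run brought MYOD1 past the limma threshold between muscles or origins; its difference between muscles, -0.03, was 0.02 under quantile normalization and -0.13 to 0.04 with 1 breed left out. Its difference by origin, -0.63, was -0.93 to -0.10 with 1 breed left out, the smallest without Jinhua. The difference of MYF6 by origin, 0.70, was 0.50 to 0.87 with 1 breed left out. Its unadjusted limma p was below 0.05 without Landrace, Piétrain or Bamei and above 0.05 without any other breed. No run brought MYF6 past the threshold by origin after adjustment. MYF6 passed between muscles only without Berkshire (-0.73), Bamei (-0.75) or Rongchang (-0.72), with -0.75 to -0.46 over the breeds left out. Without the breed block, which rests on pairing by breed, psoas major had 330 genes higher and 324 lower, MYF6 had an adjusted p of 0.300 in limma and the call of MYF5 was lost, as without a filter and without the trend and robust options. A filter at 5 FPKM left 1008 genes higher in psoas major; leaving out 1 breed gave 1228 to 1640 higher and 1464 to 1786 lower. By origin, 1 gene was higher and 0 lower with that filter, 1 and 2 in psoas major alone, 3 and 1 in longissimus dorsi alone, and 1 to 8 and 2 to 4 with 1 breed left out. The difference between muscles by origin gave 0 to 1 genes higher, the 1 without Piétrain. On deposited FPKM, 211 genes met the rule for skeletal muscle, the mean of MYOD1 in ovary was 0.501, and the median of all genes in the difference by origin was -0.12. The MYOD1 correlation between muscles was 0.77 to 0.96 with 1 breed left out, and at 0.77, without Jinhua, its adjusted permutation p was 0.0521. Among the other alternatives, 109 values without and 242 with a breed left out kept their direction and side of the threshold, or stayed within the spread. The cause of each change was not tested.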
